A study of Mus musculus with 12 samples.

Results

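The 6 genes described here encode the control circuit of ornithine decarboxylase: the antizyme inhibitors Azin2 and Azin1, the enzyme Odc1 and the antizymes Oaz1, Oaz2 and Oaz3. They were taken by name out of 21631 protein-coding genes on chromosomes 1 to 19 and X, each with its GRCm38 span and 20 kb on either side, and all 6 were found. The data are peak lists of acetylated lysine 27 of histone H3 (H3K27ac) from 3 Azin2-/- and 3 wild-type libraries, with Azin2-/- replicates numbered 1, 2 and 8 and wild-type replicates numbered 1, 2 and 2b. Azin2-/- cells are homozygous mutants of the antizyme inhibitor gene Azin2, and for wild-type cells no change is stated. The sources used here do not give the kind of allele, the strain or the age of the mice. In both genotypes adipocyte progenitors from subcutaneous fat were first grown for 1 week at 4.5 g/l glucose with 10% serum. All cultures then received insulin (5 µg/ml), 3-isobutyl-1-methylxanthine (0.5 mM), dexamethasone (1 µM) and rosiglitazone (1 µM) for 2 days, an adipogenic mixture, followed by insulin alone for 5 days with fresh medium every 2 days. The labels call the cells adipocyte progenitors, and nothing says whether the libraries came from separate animals or whether wild-type replicates 2 and 2b share one. P-values therefore measure only the spread between these libraries, which may be technical.

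Polyamines are small cations needed for growth, and ornithine decarboxylase makes the first of them, putrescine, from ornithine. Antizymes bind the monomer of the enzyme and block its activity, and their own translation needs a ribosomal frameshift that polyamines stimulate. The product of Oaz1 also delivers the enzyme to the proteasome without ubiquitin. Antizyme inhibitors resemble the enzyme but lack its activity. They bind antizyme in its place and so release active ornithine decarboxylase. H3K27ac marks the nucleosomes around active promoters and enhancers, and a peak at a gene's end is a measure of the mark and not of the transcript.

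The 300-base promoters of Odc1, Oaz1 and Oaz2 are shown because each lies under, or against, the acetylated interval that recurred at that gene in these libraries. They run from 250 bases before the start of transcription to 50 bases from it on, and come from RefSeq on GRCm38.p6, which matched 3 of the 6 genes; all 3 are on the plus strand. Capitals mark the motifs found, which are the GC box (GGGCGG) on either strand, the TATA box (TATAAA) and the CCAAT box.
Odc1, chr12:17544623-17544922: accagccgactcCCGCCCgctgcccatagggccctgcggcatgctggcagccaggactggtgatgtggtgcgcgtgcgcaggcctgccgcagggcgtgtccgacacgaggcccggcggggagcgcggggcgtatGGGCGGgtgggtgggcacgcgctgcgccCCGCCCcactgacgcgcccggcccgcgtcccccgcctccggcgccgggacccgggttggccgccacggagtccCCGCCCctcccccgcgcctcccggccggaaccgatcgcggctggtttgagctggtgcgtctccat
Oaz1, chr10:80826406-80826705: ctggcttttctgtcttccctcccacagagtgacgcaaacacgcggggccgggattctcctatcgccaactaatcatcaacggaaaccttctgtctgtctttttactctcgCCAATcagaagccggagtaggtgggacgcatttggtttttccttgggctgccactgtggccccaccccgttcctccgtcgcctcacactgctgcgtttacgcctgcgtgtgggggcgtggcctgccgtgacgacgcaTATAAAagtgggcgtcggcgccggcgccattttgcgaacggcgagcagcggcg
Oaz2, chr9:65676298-65676597: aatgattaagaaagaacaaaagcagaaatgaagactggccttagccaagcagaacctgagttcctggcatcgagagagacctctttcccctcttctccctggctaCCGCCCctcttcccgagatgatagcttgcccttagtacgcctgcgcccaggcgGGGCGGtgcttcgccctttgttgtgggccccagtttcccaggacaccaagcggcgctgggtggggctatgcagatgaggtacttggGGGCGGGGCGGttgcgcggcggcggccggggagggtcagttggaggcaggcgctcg
With the start of transcription counted as 0, Odc1 held 4 GC boxes, beginning at -238, -116, -88 and -15, and the one at -116 read on the plus strand while the others read on the minus strand. Oaz2 also held 4, beginning at -145 on the minus strand and at -92, -6 and -1 on the plus strand, the last pair overlapping by 1 base. Oaz1 held no GC box, a CCAAT box from -140 to -136 and the letters TATAAA from -3 to 2, at the start itself. Of 26794 promoters of that length, 36.2% held a GC box, 38.1% a CCAAT box and 14.2% a TATA box on either strand (8.91% on the sense strand). The letters of the E-box CACGTG (7.30% of promoters), of the cyclic AMP response element TGACGTCA (1.89%) and of the ETS core CCGGAAG (9.20%) were in none of these 3 windows. CpG pairs numbered 42 in Odc1, 29 in Oaz1 and 19 in Oaz2, against a median of 7 over all promoters, and the Odc1 promoter was 78.0% G or C, against a median of 52.7%.

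Each library had its own deposited list, of 887325, 1165136 and 767345 peaks in Azin2-/- cells against 742335, 1217494 and 762387 peaks in wild-type cells. Some lists reached down to 1 fragment at the summit. The median of 2000 sampled peaks was 1, 2 and 3 fragments in Azin2-/- replicates 1, 2 and 8. In wild-type replicates 1, 2 and 2b it was 1, 2 and 1. Every list ended at a -log10 p of about 1.00, so its end was set by p and not by a fragment count. To set libraries side by side, at most the 30000 strongest peaks of each on chromosomes 1 to 19 and X were kept, ranked by p and then by fold, and a block of equal peaks that straddled the 30000th place was left out. This left 20643 to 29290 peaks covering 16.5 to 27.8 Mb in Azin2-/- libraries and 25516 to 29975 peaks covering 15.2 to 27.9 Mb in wild-type libraries. Depth differed between libraries: the median local background under a sampled peak was 0.303, 0.462 and 1.02 fragments in Azin2-/- replicates 1, 2 and 8, against 0.164, 0.433 and 0.303 in wild-type replicates 1, 2 and 2b. The cell type label was checked with peaks at the ends of marker genes, using the peaks kept. With so few markers per type the check is coarse. Over all protein-coding genes, 17.7% held such a peak in all 6 libraries and 39.6% in none. Among 10 adipocyte markers, Plin1, Cebpa and Fasn held one in all 6 libraries and Adipoq, Cd36 and Cidec in none. Among 10 progenitor markers none was held by all 6, and Pdgfra, Dpp4, Ly6a and Pi16 were in none. Of other cell types, 4 of 6 macrophage markers (Adgre1, Csf1r, Cd68 and Ptprc), 4 of 5 endothelial, 2 of 4 mural and 3 of 5 spermatid markers were at 0 in every library, while the epithelial marker Epcam held a peak in all 6. The summed cover of the progenitor markers ran from 744 to 2231 bp in Azin2-/- libraries and from 1660 to 4109 bp in wild-type libraries. That of the epithelial markers ran from 2064 to 4523 bp in Azin2-/- libraries and from 888 to 2731 bp in wild-type libraries, and that of the adipocyte markers from 5329 to 8139 bp in Azin2-/- libraries and from 5218 to 7988 bp in wild-type libraries. Macrophage, endothelial and spermatid markers reached 524, 785 and 954 bp in an Azin2-/- library and were at 0 bp in all wild-type libraries. Mural markers ran from 0 to 2203 bp in Azin2-/- libraries and from 0 to 1264 bp in wild-type libraries. These sums were not scaled. A peak at a gene end was kept for 50.7%, 35.3% and 36.2% of all protein-coding genes in Azin2-/- replicates 1, 2 and 8. In wild-type replicates 1, 2 and 2b it was kept for 29.3%, 35.3% and 40.7%. The part of these markers in the results below was not tested.

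An acetylated gene end was found for 5 of the 6 genes, and it was the same end in every library that held it. A gene end counted as held when a kept peak touched 1 kb on either side of it. Azin2, Azin1, Odc1 and Oaz1 held one in all 6 libraries, which 17.7% of all protein-coding genes did. Oaz2 held one in 4 libraries, 2 of each genotype, and 34.6% of genes held one in 4 or more. Oaz3, the antizyme of haploid male germ cells, held none in any library, as did 39.6% of genes. Azin2 and Azin1 were marked at the higher-coordinate end of the gene, and Odc1, Oaz1 and Oaz2 at the lower-coordinate end, where the promoters printed above lie.

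**Figure D1:**
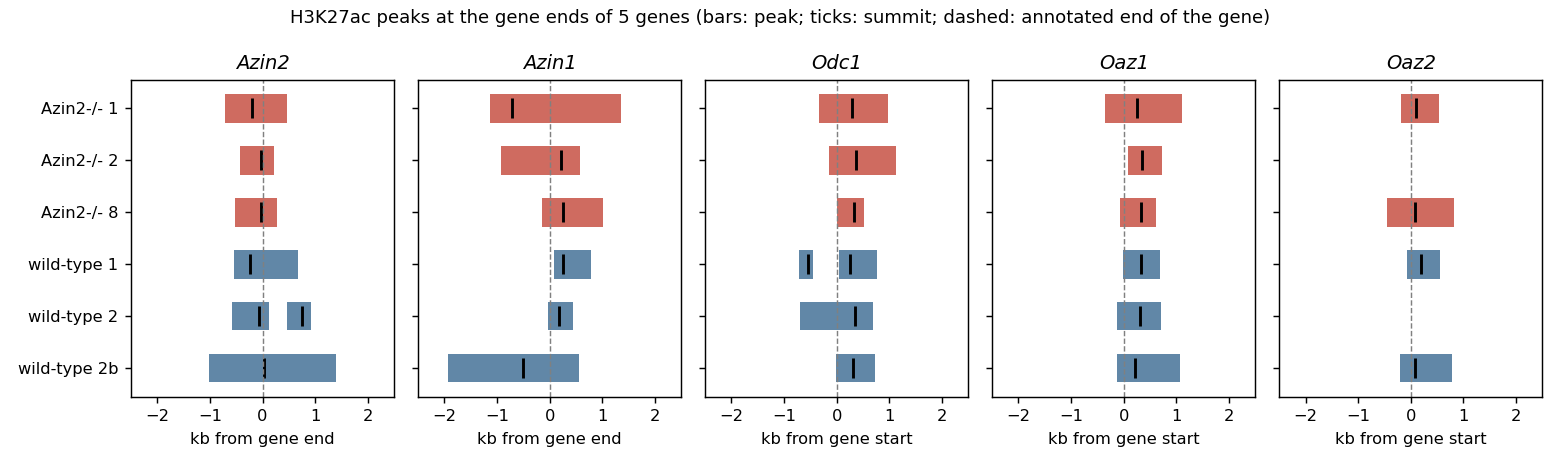
Kept H3K27ac peaks around the marked end of 5 genes, in kb from that end (the higher-coordinate end for Azin2 and Azin1, the lower-coordinate end for the others), with Azin2-/- libraries above wild-type libraries; bars are peaks and ticks their summits. All 6 libraries have a bar at the first 4 genes, and Azin2-/- replicate 2 and wild-type replicate 2 have none at Oaz2.

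Azin2, the antizyme inhibitor gene mutated in the Azin2-/- mice, lies on chromosome 4 from 128930233 to 128962456. Its peak ran over 1176, 647 and 794 bp in Azin2-/- replicates 1, 2 and 8, and over 1220 and 2426 bp in wild-type replicates 1 and 2b. Wild-type replicate 2 held 2 peaks there, of 698 and 452 bp, together 1150 bp. As deposited the genotypes overlapped, since Azin2-/- replicate 1 lay just above wild-type replicate 2 (872 ± 273 against 1599 ± 717 bp, SD, n = 3 each, exact two-sided permutation p = 0.2). Cover differs between lists, so it was also scaled to an equal total per library, which gave 916, 851 and 829 bp in Azin2-/- libraries against 1744, 1138 and 1886 bp in wild-type libraries. On that scale every Azin2-/- library lay below every wild-type library (865 ± 45.4 against 1589 ± 397 bp, SD, n = 3 each), with an exact two-sided permutation p of 0.1, the smallest that 3 against 3 libraries allow. Such a separation was met by 3.43% of the 7897 genes tested, and Azin2 was the only 1 of 5 genes tested here to show it. In limma over all genes the log2 difference, Azin2-/- minus wild-type, was -0.60 with a standard error of 0.29 on log2 of scaled bp plus 500, and an adjusted p of 0.748, so Azin2 did not pass the test. Cover is a length under called peaks. In a culture of mixed cells it cannot tell the share of cells carrying the mark from its amount per cell.

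The Azin2 summits lay close together although the peak widths did not. They fell between 238 bp inside the gene's end and 23 bp beyond it, a spread of 261 bp over 6 libraries, and all 6 libraries shared the 548 bp from 128962034 to 128962581. Fragments at the summit, recovered from the deposited fold and p, numbered 9, 5 and 25 in Azin2-/- replicates 1, 2 and 8, over a local background of 0.269, 0.693 and 7.63. In wild-type replicates 1, 2 and 2b they numbered 6, 5 and 12, over 0.164, 0.453 and 1.89. The authors' fold over background was 7.88, 3.54 and 3.01 in Azin2-/- libraries against 6.01, 4.13 and 4.49 in wild-type libraries, and these overlap. That fold is the ratio after 1 is added to both fragments and background. The added 1 weighs most where the background is low, so these folds depend on depth. The peak was thus called from 5 to 25 fragments, and its width in a shallow list rests on few of them. Its presence in all 3 Azin2-/- lists shows that this end of the gene was sequenced there; since the allele is not given, the lists do not check the genotype.

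Elsewhere in the Azin2 window, 72224 bp long with only the end of Trim62 as other coding gene, 5 further intervals were held by 1 or 2 libraries each. The one held by 2 spans 128976496 to 128977543, 14040 bp beyond the marked end, with 687 bp in wild-type replicate 1 and 603 bp in wild-type replicate 2, against 0 bp in the 3 Azin2-/- libraries (exact permutation p = 0.4). Among all deposited peaks, weak ones included, 1 Azin2-/- library and 3 wild-type libraries had a peak there. An interval inside the gene, of 698 bp, was held by Azin2-/- replicate 8 alone. Over the whole window the kept cover was 1176, 647 and 2089 bp in Azin2-/- libraries against 2305, 1753 and 2426 bp in wild-type libraries. The genotypes overlap through Azin2-/- replicate 8, and the log2 difference was -0.66 with a standard error of 0.46 (limma adjusted p = 0.789).

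Azin1, the widely expressed antizyme inhibitor, lies on chromosome 15 from 38487430 to 38519294 with no other coding gene within 20 kb. Its gene-end cover was 2498, 1502 and 1154 bp in Azin2-/- libraries against 690, 483 and 2502 bp in wild-type replicates 1, 2 and 2b. Both genotypes reach about the same highest value, because wild-type replicate 2b alone was wide, and the groups overlap (1718 ± 698 against 1225 ± 1111 bp, SD, n = 3 each, exact permutation p = 0.6). The log2 difference was 0.51 with a standard error of 0.36 (limma adjusted p = 0.792). Summits were less fixed here than at the other genes, from 38518571 to 38519543. In Azin2-/- replicate 1 and wild-type replicate 2b, which had the widest peaks, the summit lay inside the gene, and in the other 4 libraries beyond its end. The peaks of all 6 shared the 364 bp from 38519384 to 38519747. Summit fragments numbered 10, 10 and 36 in Azin2-/- libraries against 5, 7 and 25 in wild-type libraries. The widest peaks were not those with most fragments, since Azin2-/- replicate 8 had 36 fragments in 1154 bp. Among genes with a gene-end peak, the Azin1 peak stood at the 92.3, 78.0 and 70.1 percentile of width in Azin2-/- replicates 1, 2 and 8, against the 30.1, 6.36 and 91.7 percentile in wild-type replicates 1, 2 and 2b. Over the whole window the log2 difference was 0.48 with a standard error of 0.47 (limma adjusted p = 0.866).

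**Figure D2:**
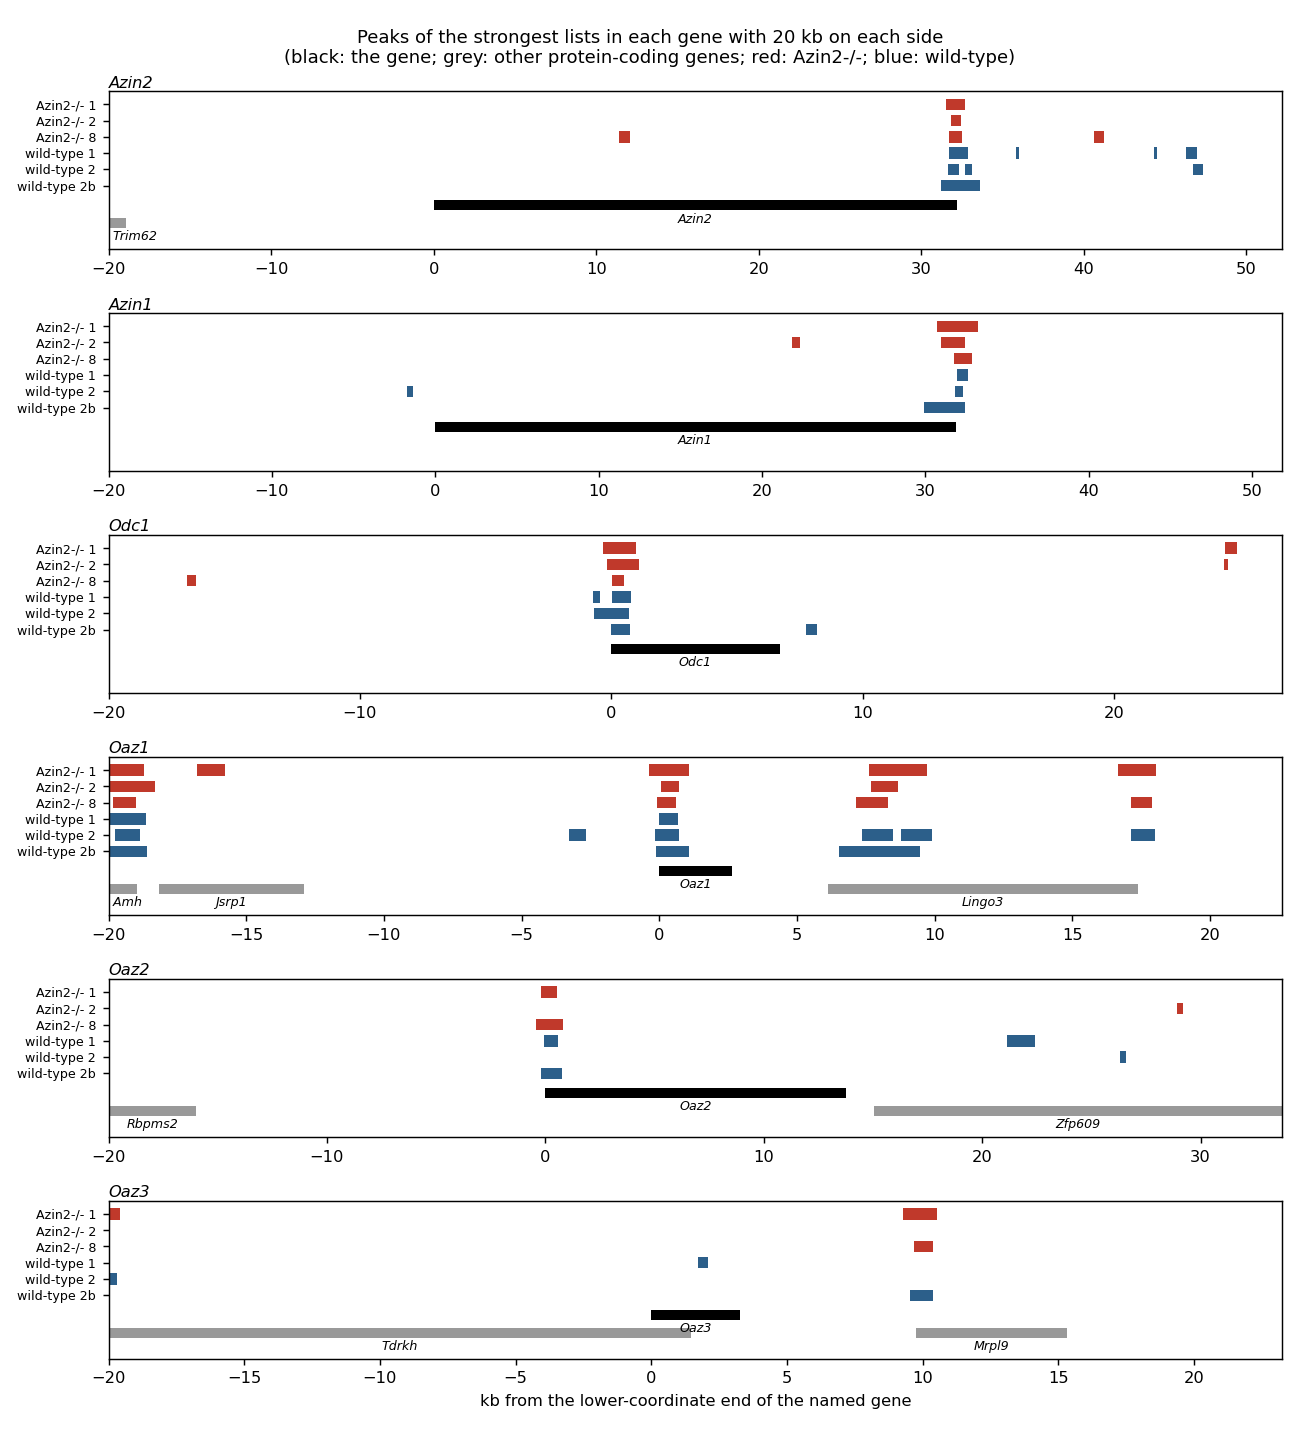
Kept H3K27ac peaks in the 6 windows, in kb from the lower-coordinate end of each gene, with Azin2-/- libraries in red above wild-type libraries in blue, the named gene in black and other protein-coding genes in grey. The windows of Azin2, Azin1 and Odc1 hold 1 interval common to all 6 libraries, and most of the other bars in the Oaz1 and Oaz3 windows lie over or beside neighbouring genes.

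Odc1, the rate-limiting enzyme of the pathway, lies on chromosome 12 from 17544808 to 17551502. Its gene-end cover was 1302, 1274 and 509 bp in Azin2-/- libraries against 1015, 1375 and 753 bp in wild-type libraries, with 2 peaks (280 and 735 bp) behind the value of wild-type replicate 1. The ranges nearly coincide, and cover was lowest in Azin2-/- replicate 8 and, among wild-type libraries, in replicate 2b (1028 ± 450 against 1048 ± 312 bp, SD, n = 3 each, exact permutation p = 1.0). The log2 difference was -0.07 with a standard error of 0.39 (limma adjusted p = 0.986). Its summits had a spread of 107 bp, close to the 109 bp of Oaz2 and under that of the other marked genes, from 187 to 294 bp downstream of the start of transcription at 17544873. A kept peak covered that start in every library, and the shared interval ran from 17544848 to 17545323, which takes in the last GC box of the printed sequence but not the others. Of the 300 promoter bases, 300, 269 and 108 were covered in Azin2-/- libraries against 75, 300 and 137 in wild-type libraries. Summit fragments numbered 17, 9 and 24 in Azin2-/- libraries against 4, 18 and 28 in wild-type libraries. Odc1 ranked between 259 (wild-type replicate 2) and 5244 (Azin2-/- replicate 1) in the lists, which makes its peak the one of the 5 whose worst rank was best.

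A separate interval near Odc1 was kept in Azin2-/- libraries alone, and it was small. It spans 17569169 to 17569696, 17667 bp beyond the gene, with 491 bp in Azin2-/- replicate 1 and 174 bp in Azin2-/- replicate 2, against 0 bp in Azin2-/- replicate 8 and in all 3 wild-type libraries (exact permutation p = 0.4). The summit of both peaks was at 17569312. Among all deposited peaks, 2 Azin2-/- libraries and 1 wild-type library had one there. Over the whole window of 46695 bp, which holds no other coding gene, cover was 1793, 1448 and 887 bp in Azin2-/- libraries against 1015, 1375 and 1197 bp in wild-type libraries (log2 difference 0.11, standard error 0.47, limma adjusted p = 0.986). The genotypes overlap there too.

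Oaz1, the abundant antizyme of most tissues, lies on chromosome 10 from 80826656 to 80829290. Its gene-end cover was 1454, 657 and 690 bp in Azin2-/- libraries against 700, 853 and 1200 bp in wild-type libraries. Azin2-/- replicate 1 was the widest and the other Azin2-/- libraries the narrowest, so the wild-type values lie between them (934 ± 451 against 918 ± 256 bp, SD, n = 3 each, exact permutation p = 1.0). The log2 difference was -0.03 with a standard error of 0.35 (limma adjusted p = 0.993). Summits fell 207 to 343 bp downstream of the start of transcription, a spread of 136 bp, and peaks covered the start in 5 libraries. The exception was Azin2-/- replicate 2, whose peak began at 80826733 and left the printed promoter at 0 covered bases, against 300 and 124 in Azin2-/- replicates 1 and 8 and 62, 187 and 181 in wild-type replicates 1, 2 and 2b. Summit fragments numbered 19, 7 and 48 in Azin2-/- libraries against 3, 5 and 27 in wild-type libraries. The 48 fragments of Azin2-/- replicate 8 made it rank 68 in that list, while the 3 fragments of wild-type replicate 1 put it at rank 24789.

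Most of the cover in the Oaz1 window belonged to its neighbours Amh, Jsrp1 and Lingo3. Window cover was 7284, 3337 and 3493 bp in Azin2-/- libraries against 2028, 5490 and 5554 bp in wild-type libraries, with wild-type replicate 1 lowest and Azin2-/- replicate 1 highest (log2 difference 0.12, standard error 0.36, limma adjusted p = 0.971). An interval at Amh, the anti-Müllerian hormone gene, was held by all 6 libraries. It had 1616, 2465 and 847 bp in Azin2-/- libraries against 1328, 923 and 1859 bp in wild-type libraries. These lengths are of the whole interval, which begins at 80805873, before the window's edge at 80806656. Window cover stops at that edge. An interval in Lingo3 had 2121, 998 and 1168 bp in Azin2-/- libraries against 0, 2233 and 2963 bp in wild-type libraries. Wild-type replicate 1 held no kept peak there, though all 6 libraries had a deposited one. A second Lingo3 interval was kept in 2 Azin2-/- libraries and 1 wild-type library.

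Oaz2, a second antizyme found in many tissues, lies on chromosome 9 from 65676548 to 65690300. Its gene-end cover was 734, 0 and 1267 bp in Azin2-/- libraries against 643, 0 and 997 bp in wild-type libraries. Replicate 2 of each genotype held none, and the groups overlap (667 ± 636 against 547 ± 505 bp, SD, n = 3 each, exact permutation p = 0.8). The log2 difference was 0.04 with a standard error of 0.69 (limma adjusted p = 0.996). In the 4 libraries that held it the summit lay 85 to 194 bp downstream of the start of transcription, and the peaks shared the 617 bp from 65676469 to 65677085. That interval holds the GC boxes of the printed sequence at -6 and -1 and not the others. Summit fragments numbered 9 and 23 in Azin2-/- replicates 1 and 8 against 3 and 10 in wild-type replicates 1 and 2b. Below the kept list, Azin2-/- replicate 2 had a deposited peak of 436 bp over the start, with 5 fragments over a background of 0.819, at rank 46228. Wild-type replicate 2 had one of 671 bp at rank 30684 that ended upstream of the start, with 4 fragments. So both libraries that lacked a kept peak had a weaker one within 1 kb, and with 60000 peaks a library Oaz2 was held in all 6. In its window, 3 intervals in the neighbour Zfp609 were held by 1 library each, and the log2 difference over the window was -0.31 with a standard error of 0.65 (limma adjusted p = 0.954).

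Oaz3 lies on chromosome 3 from 94433387 to 94436651 and overlaps the end of its neighbour Tdrkh. Its gene-end cover was 0 bp in all 3 Azin2-/- libraries and in all 3 wild-type libraries, so it was not tested. The weak deposited peaks at its ends, present in 5 libraries and missing from wild-type replicate 1, held 1 to 3 fragments. Inside the gene, wild-type replicate 1 kept a peak of 375 bp from 94435122 to 94435496. Window cover was 1695, 0 and 673 bp in Azin2-/- libraries against 375, 307 and 841 bp in wild-type libraries (log2 difference 0.06, standard error 0.71, limma adjusted p = 0.997). All of it apart from that 375-bp peak lay at neighbours. At Mrpl9, a mitochondrial ribosomal protein gene, it was 1267, 0 and 673 bp in Azin2-/- libraries against 0, 0 and 841 bp in wild-type libraries. At the far edge of the window, by Tdrkh, an interval was kept in Azin2-/- replicate 1 and wild-type replicate 2.

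**Figure D3:**
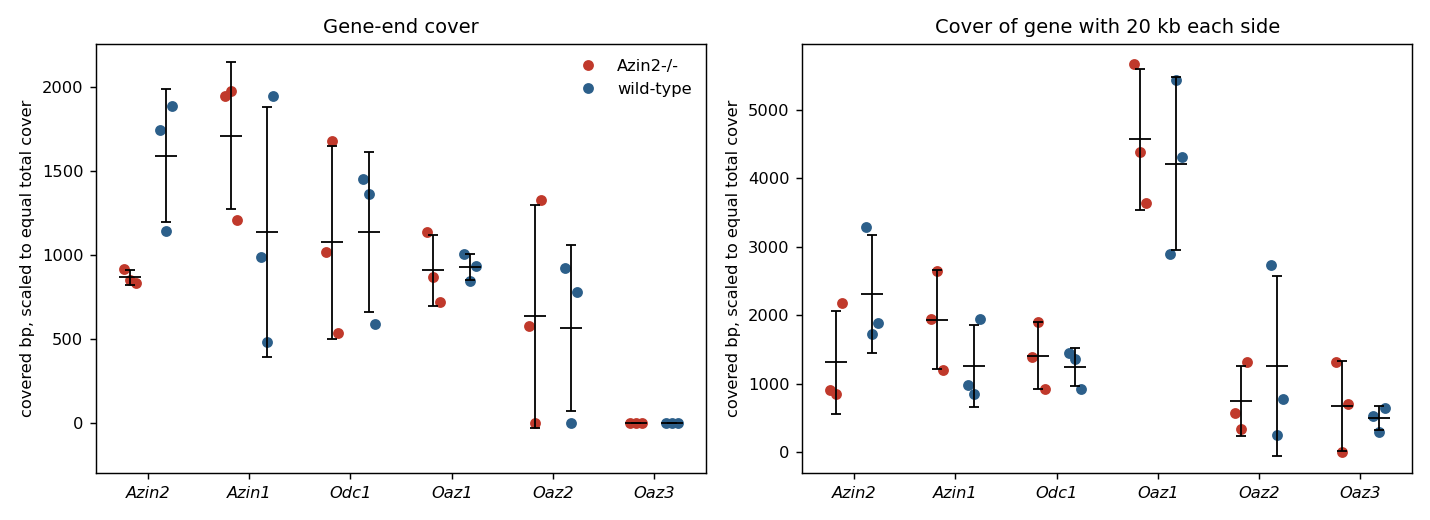
Kept cover per library in bp, scaled to an equal total cover, at the gene ends (left) and over each gene with 20 kb on each side (right); points are libraries, Azin2-/- in red left of wild-type in blue, and bars the mean and SD of 3 libraries. At the gene end of Azin2 the red points (829 to 916 bp) lie below the blue (1138 to 1886 bp), and at every other gene and over every window the genotypes overlap or are at 0. The lowest blue point there, wild-type replicate 2, sums separate peaks.

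Across the 6 genes no difference between genotypes passed limma's test, and no gene of the genome did so either. At gene ends 0 of 7897 genes (0.0%) had an adjusted p under 0.05. An unadjusted p under 0.05 was found for 365 genes higher and 118 genes lower in Azin2-/- cells, and none of the 5 members tested was among them. Over windows 0 of 14346 genes (0.0%) were called, while 763 were higher and 263 lower at an unadjusted p under 0.05, again with no member among the 6 tested. The median log2 difference at gene ends was -0.03 over the 5 members, of which 2 had a positive and 3 a negative value, beside 0.11 over all genes tested. Over windows it was 0.09 over the 6 members, 4 of them positive and 2 negative, beside 0.12 over all genes tested.

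**Figure D4:**
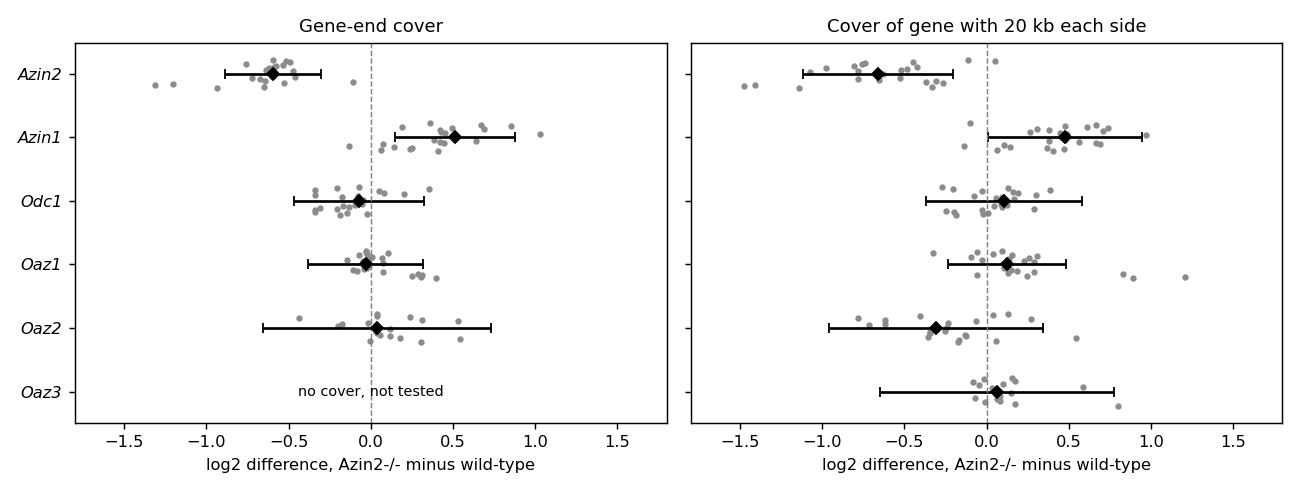
Log2 difference in scaled cover, Azin2-/- minus wild-type, at gene ends (left) and over windows (right); diamonds are the main values with bars of 1 standard error, and grey dots the values under other ways of processing. At the Azin2 gene end every dot lies below 0, from -1.31 to -0.11, whereas the dots of the other genes lie on both sides of 0. Dots for a changed minimum or no mean trend repeat the main value.

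Kept cover per length did not order the genes beyond their spread, except for the Oaz1 window, most of whose cover lay at neighbours. Per kb of window, mean kept cover over the 6 libraries was 106 ± 44.9 bp for Oaz1 (SD), 27.5 ± 6.98 for Odc1, 24.0 ± 9.64 for Azin2, 22.5 ± 11.4 for Azin1, 16.9 ± 11.8 for Oaz2 and 15.0 ± 13.7 for Oaz3. Oaz1 was above Odc1 in 6 of 6 libraries, with its neighbours' peaks included. Every other gene was above the next in only 3 or 4 of 6 libraries. At gene ends, where the quantity is the bp of the marked end and needs no length, the order was Azin1 (1472 ± 872 bp), Azin2 (1236 ± 628 bp), Odc1 (1038 ± 347 bp), Oaz1 (926 ± 328 bp), Oaz2 (607 ± 518 bp) and Oaz3 (0 bp). Neighbours in it held their order in 3 to 5 of 6 libraries. Width ranks of 1 gene varied widely between libraries: Odc1 stood at the 51.2, 66.5 and 9.04 percentile in Azin2-/- libraries against the 59.0, 72.0 and 13.9 percentile in wild-type libraries, and Azin2 at the 41.9, 17.5 and 38.7 percentile in Azin2-/- libraries against the 72.6, 58.4 and 90.6 percentile in wild-type libraries.

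**Figure D5:**
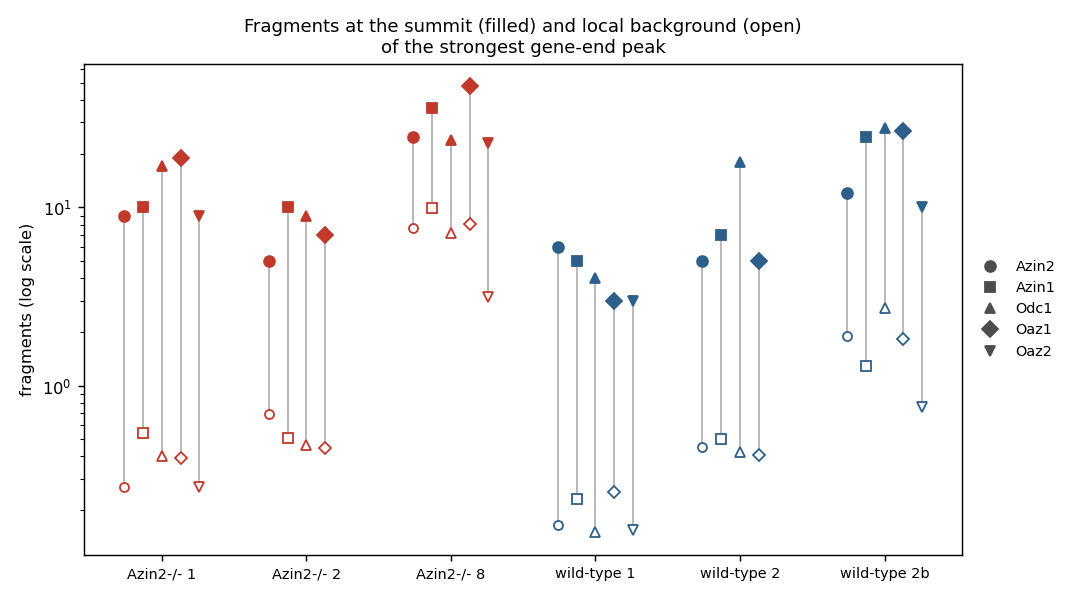
Fragments at the summit (filled) and local background (open) of the strongest kept gene-end peak of 5 genes, on a log scale, for Azin2-/- libraries (red) and then wild-type libraries (blue). Azin2-/- replicate 8 and wild-type replicate 2b reach the highest counts, 48 and 28 fragments, and wild-type replicate 1 holds 3 to 6.

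The count of fragments at a summit differed by library. In Azin2-/- cells the gene-end summits held 23 to 48 fragments in replicate 8 and 5 to 10 in replicate 2, which lacks Oaz2. In wild-type cells they held 10 to 28 fragments in replicate 2b and 3 to 6 in replicate 1. Background at the same summits moved with them, from 3.14 to 9.87 fragments in Azin2-/- replicate 8 and from 0.150 to 0.251 in wild-type replicate 1. The part of depth in the widths above was not tested.

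Outside the gene ends little recurred from library to library. The 6 windows held 26 kept intervals in all, of which 14 were seen in 1 library and 5 in all 6: the gene ends of Azin2, Azin1, Odc1 and Oaz1, and the Amh interval. Away from the gene ends, 7 intervals were kept in 2 or more libraries, and 5 of these lay at a neighbouring gene. With weak peaks included, the window of Azin2 held 31, 36 and 24 deposited peaks in Azin2-/- libraries against 32, 51 and 28 in wild-type libraries. The window of Odc1 held 14, 28 and 12 in Azin2-/- libraries against 14, 31 and 11 in wild-type libraries. In both windows replicate 2 of each genotype had most peaks, and its deposited lists were also the longest. No window separated the genotypes by count (exact permutation p from 0.6 to 1.0).

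The genes whose window cover varied most like each member over the 6 libraries were picked by the highest Pearson r of log2 scaled cover, which is a description without a test, since the best of all genes compared is high by selection. For Azin2 they were Dytn (r = 0.995), Mmp27 (r = 0.987) and Mcu (r = 0.986), with 66 of 14343 genes above an r of 0.9. For Azin1 they were Afap1l1, Tmco1 and Cyp11b2, for Odc1 Sapcd2, Lrrn1 and Tmem50b, and for Oaz1 Rcor1, Pard6b and Unkl. For Oaz2 they were Ssh2, Jak1 and Ktn1, and for Oaz3 Cluap1, Xrra1 and Tonsl. All these r were from 0.982 to 0.996, the points share libraries and depth, and no member was among another's nearest.

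The other polyamine genes, 19 named from the synthesis, breakdown, transport and hypusine steps, also held marks without a called difference. A gene-end peak was held in all 6 libraries by 7 of them: Srm, spermidine synthase; Amd1, which supplies the aminopropyl donor; Mat2a, which makes S-adenosylmethionine; Smox, spermine oxidase; Dhps and Eif5a, enzyme and substrate of hypusine formation; and the transporter Atp13a3. Sat1, Sat2, Arg1, Arg2 and Agmat held none in any library. Of all protein-coding genes, 17.7% held a gene-end peak in all 6 libraries and 39.6% in none. Of the 12 that reached the minimum cover at gene ends none was called, and 9 had a positive and 3 a negative log2 difference, with a median of 0.37, beside 4709 positive of 7897 genes and a median of 0.11 over all genes tested. Over windows 17 were tested and none called, with 11 positive, 6 negative and a median of 0.15, beside 0.12 over all genes tested. The 3 genes with the largest difference at gene ends all had positive values. Dohh, the hydroxylase that completes hypusine, had 1383, 534 and 1939 bp in Azin2-/- libraries against 0 bp in all 3 wild-type libraries. The genotypes do not overlap there, as for 8.21% of the genes tested in that direction, and its limma adjusted p was 0.748. Dohh reached the minimum cover through the Azin2-/- libraries alone, so its difference is bound to that selection and is given as a description. Atp13a2, a lysosomal polyamine exporter, had 2828, 442 and 792 bp in Azin2-/- libraries against 0, 642 and 644 bp in wild-type libraries, which overlap (log2 difference 0.92, limma adjusted p = 0.763). Mtap, which salvages the methylthioadenosine left by polyamine synthesis, had 855, 1083 and 368 bp in Azin2-/- libraries against 0, 0 and 926 bp in wild-type libraries, which overlap as well (log2 difference 0.90, limma adjusted p = 0.796). Atp13a3, added here after its values were seen as the gene of the 12 with the lowest difference, had 1552, 1552 and 699 bp in Azin2-/- libraries against 1529, 3091 and 2030 bp in wild-type libraries. These overlap through wild-type replicate 1 (log2 difference -0.63, limma adjusted p = 0.748).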

How the data were processed

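H3K27ac peak lists of 3 Azin2-/- and 3 wild-type libraries were used, 1 list per library; 6 input libraries were not analysed here. The build was GRCm38 (mm10), per the submitters' processing notes; the sources used here do not name the aligner, peak caller or control. The lists have no header, and the deposited columns were read from their values as peak bounds, a score (whole part of 10 times the -log10 p), a fold ratio of summit over background, -log10 p-values and -log10 q-values, and the summit offset. Fragments at a summit were recovered from the authors' p-value and fold ratio, the latter read with 1 added to both summit and background. The counts were whole numbers within 0.001 in 100% of 2000 sampled peaks per library. A small count carries counting error. Cover is the bp under the 30000 strongest peaks, less a block of ties at that place, in a gene with 20 kb each side or of peaks touching 1 kb around a gene end. It was scaled to equal totals and, as log2 with 500 bp added, tested with limma 3.58.1 (mean trend, R 4.3.3, two-sided) over all genes that averaged 500 bp or more, with Benjamini-Hochberg adjustment and a threshold of 0.05; the code was tested on simulated data. Single values had an exact permutation test over 10 splits. Named genes were the 6 members, their neighbours, the 3 most similar genes by Pearson r, and, of 19 other polyamine genes, those called and the 3 with the largest log2 difference at gene ends, with values; other polyamine genes and cell markers are named only as holding a peak in all libraries or in none, apart from Atp13a3. The members and lists were chosen with earlier results of these data known. Gene spans are RefSeq's for GRCm38.p6; exons and strand were not used for them.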

Additional observations from a re-analysis of the deposited data

How the results depend on the processing

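No member was called under any alternative. Of 269 recomputed member values, 222 kept their direction and 47 turned. A changed minimum or a fit without mean trend cannot alter a log2 difference, so such values kept their direction by construction. All other alternatives reuse the same libraries and are not independent. At the gene end Azin2 stayed negative in all 24, from -1.31 (q of 0.05 or less) to -0.11 (fixed windows), with a smallest limma adjusted p of 0.563. Genes called numbered 0 at gene ends but 14 at a q of 0.05 or less, 9 at a q of 0.01 or less, 1 with all deposited peaks, 147 with fixed windows of 250 bp each side of summits and 2 with no minimum; over windows they numbered 13 at a q of 0.01 or less, and from 0 to 1 with a library left out (1 without wild-type replicate 2). In the gene-end fits under both q limits and with fixed windows, limma took the variance wholly from the trend over genes. Each gene's own spread between libraries had no weight there, so those counts are not read as genotype differences. With 5000 peaks a library, the members' gene ends were held 14 times, against 28. The cause was not tested.

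With the replicate block the calls were 39 over windows and 18 at gene ends. Here too each gene's own spread had no weight in the variance, so these counts are not read as genotype differences. Oaz1 and Oaz2 at the gene end turned to 0.071 and -0.20. Azin1 moved to 1.03 at the gene end and to 0.97 over windows, and Azin2 over windows to -1.07. Only replicates 1 and 2 of each genotype inform the genotype difference in that fit. Azin2-/- replicate 8 and wild-type replicate 2b have no same-numbered partner. The labels do not say that the numbers pair the samples, and so few same-numbered pairs cannot decide it. At gene ends these deviated together with r of -0.03 (replicates 1) and 0.12 (replicates 2), and over windows with -0.05 and 0.071. Pairs of unlike number ran from -0.10 to 0.081 at gene ends and from -0.065 to 0.065 over windows. Replicates 2 were thus the closest pair in both measures.

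Turned log2 differences over windows were as follows. Azin2 was 0.052 for the gene alone. Azin1 was -0.14 with all deposited peaks and -0.10 with 50 kb each side. Odc1 was -0.19 with 15000 and -0.020 with 5000 peaks, -0.20 and -0.25 at a q of 0.05 and 0.01 or less, -0.029 with all deposited peaks, -0.20 with 5 kb and -0.27 with 50 kb each side. Oaz1 was -0.058 at a q of 0.05 or less, -0.32 with 5 kb each side and -0.058 for the gene alone. Oaz2 was 0.059 with 60000 peaks, 0.54 at a q of 0.01 or less, 0.037 with 5 kb and 0.13 with 50 kb each side. Oaz3 was -0.011 with all deposited peaks, -0.069 with 200 bp added and -0.013 without the deepest and shallowest libraries.

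At gene ends, Azin1 was -0.13 with all deposited peaks and Odc1 0.35 without the deepest and shallowest libraries. Oaz1 was 0.40 with 15000 and 0.30 with 60000 peaks, 0.25 and 0.31 at a q of 0.05 and 0.01 or less, 0.29 with all deposited peaks, 0.076 with fixed windows and 0.10 without the deepest and shallowest libraries. Oaz2 was -0.0067 at a q of 0.05 or less and -0.18 with wild-type replicates 2 and 2b averaged.

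Without a turn, Azin2 over windows moved to -1.14 with 15000 peaks and to -1.47 and -1.41 under the q limits of 0.05 and 0.01, Oaz1 to 1.21 with 5000 and 0.89 with 15000 peaks and 0.83 under a q limit of 0.01, and Oaz3 to 0.80 with 60000 peaks.

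With 1 library left out at a time, log2 differences over windows ran from -0.98 (without Azin2-/- replicate 8) to -0.42 (without wild-type replicate 1) for Azin2, 0.27 to 0.74 for Azin1, -0.074 to 0.30 for Odc1, -0.10 to 0.31 for Oaz1, -0.78 to 0.27 for Oaz2 and -0.085 to 0.58 for Oaz3. At gene ends they ran from -0.76 to -0.49 for Azin2, 0.19 (without wild-type replicate 2) to 0.85 (without wild-type replicate 2b) for Azin1, -0.34 to 0.20 for Odc1, -0.14 to 0.067 for Oaz1 and -0.44 to 0.53 for Oaz2. Keeping the ties at the 30000th place, or breaking them by position, was chosen after seeing the data and gave 0 calls; leaving ties out avoids a choice by chromosome name. Members under the minimum, and Azin2, Azin1 and Oaz3 for the start of transcription alone, have no value. Summits of 3 to 10 fragments limit what widths can show.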
